A study of Mus musculus with 6 samples.

Results

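The 38 genes described here encode the proteins that make, modify and break down ceramide, sphingomyelin and sphingosine 1-phosphate (S1P), with the regulators of the first step and the receptors of S1P. They were chosen by symbol, and each of the 38 symbols had exactly 1 row among the 54532 rows of the deposited table. RNA from whole kidneys was sequenced in 6 libraries, 3 from KsprtTA mice (Control) and 3 from KsprtTA/TRE-Adiponectin mice (KSPAPN). In KSPAPN, the doxycycline-controlled activator rtTA, driven by the Ksp promoter in tubular epithelium (proximal tubule through collecting duct), turns on an adiponectin transgene. All mice of both groups carried KsprtTA and ate chow with doxycycline at 600 mg/kg for 4 days. They were male, on the C57BL/6 background, and their age is not given in the sources used here. Each library was a pool of 3 mice, so the spread between libraries is one between pools, which may in part be technical. The labels name the Control genotype WT, and they give kidney as tissue while the text on extraction names another organ. The comparison addresses how the expression of the sphingolipid pathway differed in kidneys whose tubules overexpress adiponectin, a secreted protein of adipocytes whose receptors are linked to ceramidase activity.

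Ceramide is a sphingoid base joined to a fatty acid. It is built de novo in the endoplasmic reticulum from serine and palmitoyl-CoA, first by serine palmitoyltransferase, then by ketosphinganine reduction, N-acylation by a ceramide synthase and desaturation by a dihydroceramide desaturase. Ceramide is then turned into sphingomyelin, glucosylceramide, galactosylceramide or ceramide 1-phosphate, or is split by ceramidases into sphingosine, which sphingosine kinases phosphorylate to S1P. S1P is dephosphorylated, split irreversibly by S1P lyase or exported to act on G protein-coupled receptors. In the kidney, complex sphingolipids are abundant in tubular membranes, and inherited defects of their lysosomal breakdown can store lipid in renal cells.

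Total counts on genes were 17183358 to 18205023 in Control and 18150442 to 20871173 in KSPAPN, and 16017 genes passed the filter on low counts. *Adipoq*, the overexpressed gene, had 2, 0 and 2 counts in Control and 24629, 17483 and 26811 in KSPAPN, with no overlap (exact permutation test on FPKM, two-sided, p = 0.1, which no comparison of 3 libraries with 3 can go below). Kidney markers were abundant and those of liver were low. *Slc34a1*, the phosphate transporter of the proximal tubule, was at 1212 and 1085 FPKM on average in Control and KSPAPN, and *Alb*, for albumin, at 2.05 and 3.04. Of lists of markers by cell type, 12 proximal tubule genes had a median log2 fold change of -0.28 (KSPAPN against Control), 11 of them below 0, and edgeR called 4 of them as lower (adjusted p under 0.05). Of all genes tested, 51.9% were above 0 and edgeR called 2.25% as lower. The summed level of the 12 genes was 3590 to 4322 FPKM in Control and 2944 to 3075 FPKM in KSPAPN, so the groups did not overlap. Medians were 0.11 for the thick ascending limb and distal convoluted tubule, -0.090 for the collecting duct, 0.015 for endothelium, 0.19 for podocytes, 0.17 for fibroblasts, pericytes and smooth muscle, -0.12 for leukocytes and 0.18 for erythroid cells. *Slc12a1* of the thick ascending limb was the only gene of these 7 lists at an adjusted p under 0.05 in edgeR (log2 fold change 0.52). At an unadjusted p under 0.05, 4 of the 10 collecting duct genes tested were lower and 0 higher, against 11.2% and 7.52% of all genes tested. In the list of the thick ascending limb and distal convoluted tubule, 1 of 8 was lower and 1 higher. The adipocyte list (median -0.11, 3 of 6 tested) summed to 1.06 to 2.09 FPKM in Control and 1.58 to 1.98 FPKM in KSPAPN, and the hepatocyte list (median 0.55, 3 of 6 tested) to 2.27 to 3.6 and 1.0 to 6.30 FPKM. Neither had a gene at an adjusted p under 0.05, and no listed marker of any cell type was at 0 in all libraries. In whole tissue, fewer cells of a type and less RNA per cell cannot be told apart.

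The kidney transcribed nearly the whole pathway. By mean FPKM (fragments scaled by gene length and library size, so that genes can be compared) over the 6 libraries, 18 of the 38 genes were at 10 or more, 14 between 1 and 10, and 6 under 1. The highest were *Degs1*, a dihydroceramide desaturase, and *Cers2*, the ceramide synthase of very long acyl chains. In 3 genes the counts did not pass the filter. *Acer1*, an alkaline ceramidase best known from skin, had no read in any library, which allows up to 3 counts per library. *Cers1*, the ceramide synthase of brain and muscle, had 4, 0 and 5 counts in Control and 5, 7 and 0 in KSPAPN, and 47.6% of the 100-base stretches of its transcript also occur in *Gdf1*. *Cers3*, the ceramide synthase of skin and testis, had 11, 1 and 5 against 8, 6 and 7 counts. Summed over the 38 genes, the level was 467 to 503 FPKM in Control and 477 to 514 FPKM in KSPAPN, and the groups overlapped.

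**Figure D1:**
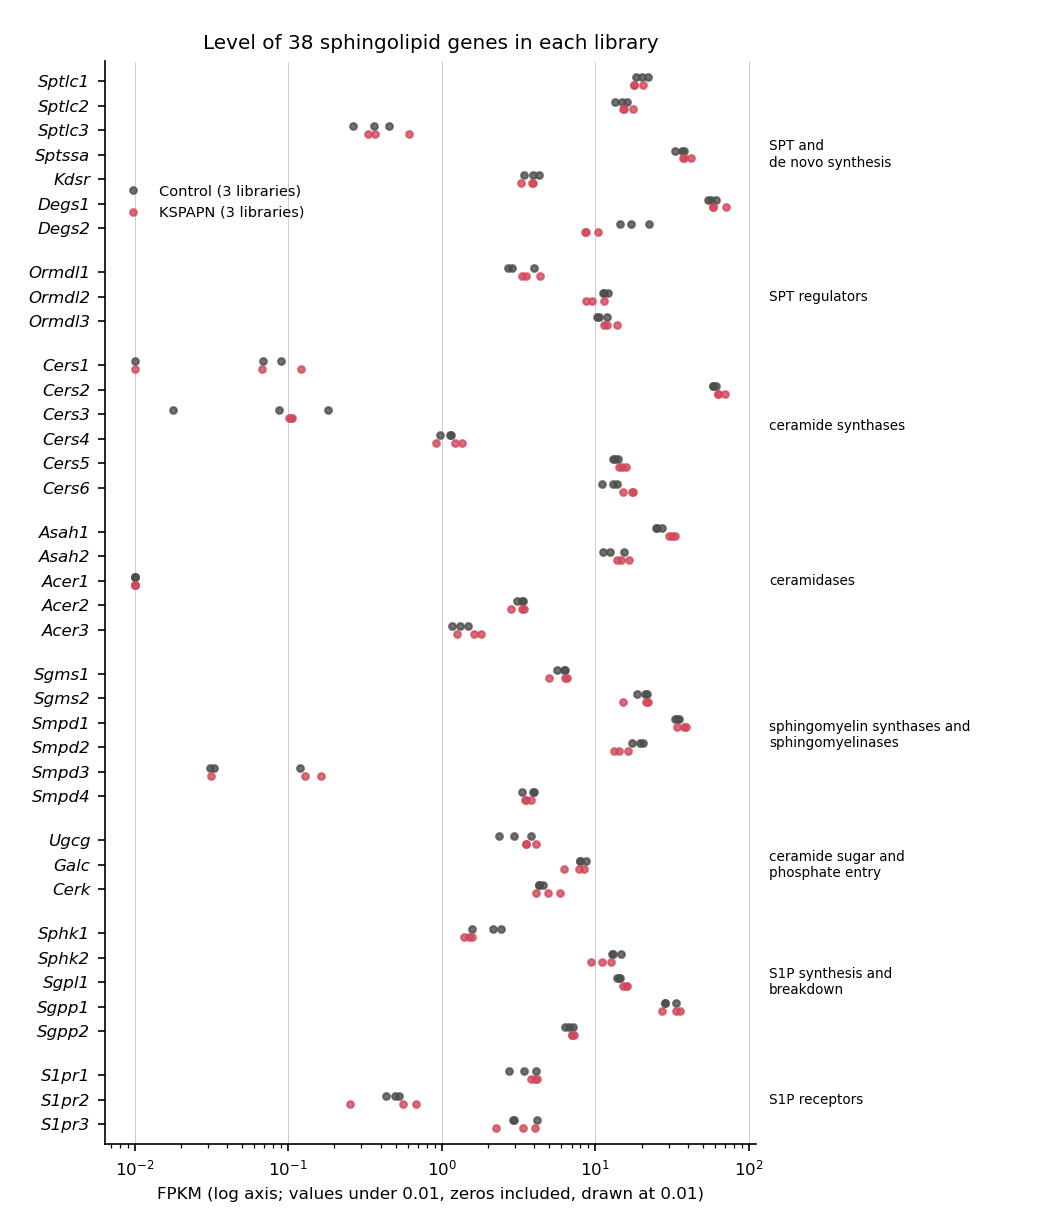
FPKM on a log axis of each of the 38 sphingolipid genes, grouped by role, with 1 point for each of the 3 Control and 3 KSPAPN libraries. Most genes lie between 1 and 100 FPKM with the groups side by side, *Acer1*, *Cers1*, *Cers3* and *Smpd3* lie near 0, and the KSPAPN points of *Degs2* stand to the left of all Control points.

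Among the 35 genes tested, edgeR's quasi-likelihood test (Benjamini-Hochberg over all genes tested) called 1 as lower in KSPAPN and 0 as higher, with a threshold of 0.05 on the adjusted p. The gene that fell was *Degs2*. Of all 16017 genes tested, 2.65% passed this threshold, 0.393% as higher and 2.25% as lower, so that the 2.86% of the sphingolipid genes was near the background. At an unadjusted p under 0.05, *Cers6* and *Asah1* were higher and *Degs2*, *Smpd2*, *Sphk1* and *Sphk2* were lower, 17.1% of the 35 against 18.7% of all genes (7.52% as higher and 11.2% as lower). The FPKM of the groups did not overlap in 8 of the 35, or 22.9%, against 24.4% of all genes. KSPAPN was above Control in 5 of them (background 10.8%) and below in 3 (background 13.5%). DESeq2 gave 3 of 33 genes with an adjusted p under 0.05, *Degs2*, *Cers6* (adjusted p = 0.0275) and *Smpd2* (adjusted p = 0.0421), or 9.09%, against 6.88% of all genes with one. The median log2 fold change of the 35 was 0.12, with 22 above 0 and 13 below, beside a median of 0.012 and 51.9% above 0 over all genes tested. With total counts alone as normalization, the medians were 0.19 and 0.081, and once trends with GC content and gene length were removed 0.069 and 0.043. For 25 of the 35 genes the 95% interval lay within a 1.5-fold change in either direction, as it did for 49.6% of all genes tested. The 10 others were *Sptlc3*, *Degs2*, *Ormdl1*, *Cers6*, *Smpd2*, *Smpd3*, *Ugcg*, *Sphk1*, *S1pr1* and *S1pr2*.

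**Figure D2:**
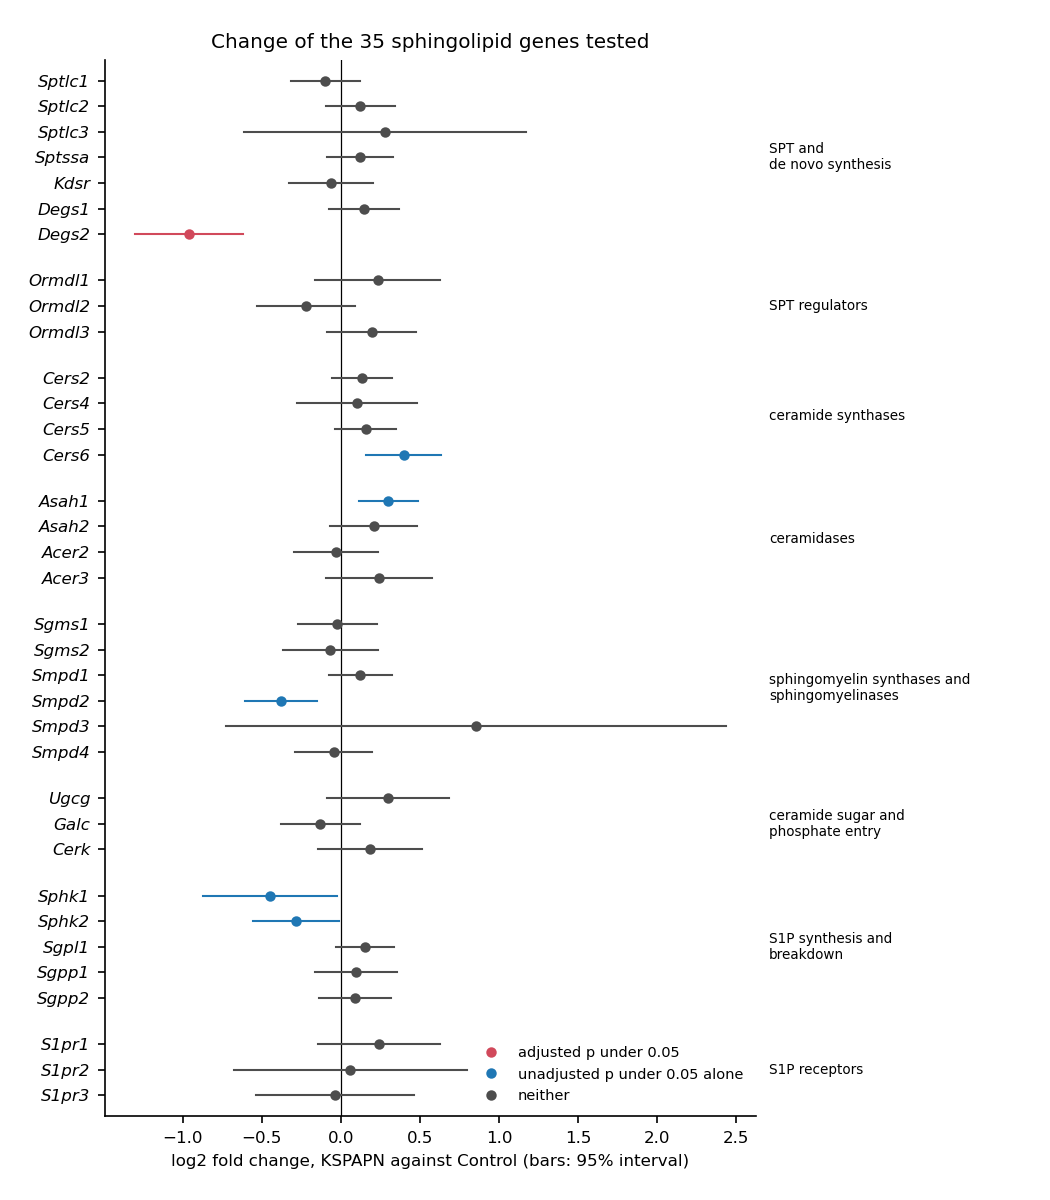
Log2 fold change of KSPAPN against Control for the 35 sphingolipid genes tested by edgeR, as points with 95% intervals, grouped by role and coloured by whether the adjusted or only the unadjusted p was under 0.05. Most points lie near 0, *Degs2* at -0.96 is the lowest, and the widest interval is that of *Smpd3*, a gene with 3 to 20 counts per library.

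*Degs2* encodes a dihydroceramide desaturase that can also hydroxylate dihydroceramide to phytoceramide, whereas *Degs1* encodes the widely expressed desaturase. *Degs2* (ENSMUSG00000021263) lies on the minus strand of chr12:108678711-108702315 of GRCm38. In Control its FPKM was 17.2, 22.3 and 14.6, and in KSPAPN 8.51, 10.4 and 8.69, from 821, 999 and 662 against 512, 492 and 465 counts. All KSPAPN libraries were below all Control libraries. The means were 18.0 ± 3.93 and 9.21 ± 1.06 FPKM (SD, n = 3 libraries each), and *Degs2* fell with a log2 fold change of -0.96 (SE 0.15, 95% interval -1.31 to -0.62, adjusted p = 0.0138 from edgeR). The change lay between -1.09 and -0.78 with single libraries left out. Its adjusted p was then 0.0674 without Control replicate 1 and 0.0719 without KSPAPN replicate 3. With limma on FPKM it was 0.0528 and 0.0508 at pseudocounts of 1 and 0.1, and over all 14 alternatives it ranged from 5.22e-11 to 0.0719. On the opposite strand, the transcript of *Degs2* shares 10.98% of its 100-base stretches with *Evl*, whose counts add up to 1084 over the libraries beside 3951 for *Degs2*, and *Evl* had a log2 fold change of 0.13 (SE 0.24). The proximal tubule markers given above were lower in the same libraries, and their part in the result was not tested.

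Among the genes of de novo synthesis other than the ceramide synthases, *Degs1* had the highest mean FPKM, with 56.3, 60.8 and 54.0 in Control and 58.6, 71.4 and 58.8 in KSPAPN. The groups overlapped, and the log2 fold change was 0.15 (SE 0.10, 95% interval -0.077 to 0.37). The make-up of the desaturase pair is given here without a test. *Degs2* held 23.4%, 26.8% and 21.3% of the FPKM of both in Control and 12.7%, 12.7% and 12.9% in KSPAPN. The KSPAPN shares were all below the Control shares and close to each other, at 12.8% ± 0.102 (SD, n = 3 libraries) against 23.8% ± 2.81 (SD, n = 3).

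The promoters of both desaturases are shown because they are alternatives for 1 reaction and only *Degs2* passed the test. RefSeq sequences (GRCm38.p6) of the 250 bases before the RefSeq start are given 5′ to 3′ on the strand of the gene, with matches to short motifs on either strand in capitals. The GC box is GGGCGG, which on the opposite strand reads as CCGCCC. The E-box is CACGTG, and the TATA box is TATAAA. The last motif is the pentamer CCAAT. The DR1 and HNF1 elements, searched as well, had no match in the promoters shown or in those matched for 35 of the 38 genes.
Degs2, chr12:108702307-108702556, minus strand: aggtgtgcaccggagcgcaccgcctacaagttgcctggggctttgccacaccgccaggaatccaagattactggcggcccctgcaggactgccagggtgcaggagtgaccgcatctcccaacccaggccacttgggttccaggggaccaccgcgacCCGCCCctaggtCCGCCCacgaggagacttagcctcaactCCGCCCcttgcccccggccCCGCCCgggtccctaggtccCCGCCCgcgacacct
Degs1, chr1:182282196-182282445, minus strand: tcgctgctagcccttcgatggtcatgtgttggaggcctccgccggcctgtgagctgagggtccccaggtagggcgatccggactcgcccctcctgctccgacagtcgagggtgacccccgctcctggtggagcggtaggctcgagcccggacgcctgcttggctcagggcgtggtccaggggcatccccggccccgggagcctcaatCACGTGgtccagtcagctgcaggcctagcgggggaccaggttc
The *Degs2* promoter held 5 GC boxes, which begin 94, 82, 54, 35 and 15 bases before the start, and none of the other motifs. The *Degs1* promoter held 1 E-box, which begins 43 bases before the start, and no GC box. Starts of RefSeq and GENCODE can differ. GENCODE places *Degs1* at chr1:182275772-182282804 on the minus strand, so its RefSeq stretch lies inside that gene. The stretch of *Degs2* lies almost wholly before the GENCODE start. The 2 stretches therefore do not have the same position relative to the GENCODE starts. Of 32851 RefSeq promoters of the same length, 32.7% held GGGCGG, 33.9% CCAAT, 12.4% TATAAA and 6.02% CACGTG, while 0.0335% held DR1 and 0.00913% HNF1. RefSeq gave 50 promoters for 35 of the 38 genes, and of these 27 (54%) held GGGCGG, 15 (30%) CCAAT, 1 (2%) TATAAA and 8 (16%) CACGTG. Some genes had several promoters, which can share sequence. Counted by gene, these motifs were found in 24, 13, 1 and 7 of the 35. No promoter was matched for *Asah1*, *Smpd3* and *S1pr1*. These matches describe letters and not bound factors.

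None of the other serine palmitoyltransferase and reductase genes passed the test in edgeR, and none of those with an adjusted p did in DESeq2. *Sptlc1* and *Sptlc2*, which encode the core subunits of serine palmitoyltransferase, had log2 fold changes of -0.10 (SE 0.098) and 0.12 (SE 0.098) at mean levels of 20.2 and 14.8 FPKM in Control. *Sptlc3*, an alternative catalytic subunit that gives shorter sphingoid bases, was at 0.360 FPKM in Control and 0.436 FPKM in KSPAPN. *Sptlc1* held 59.2%, 57.4% and 54.6% of the FPKM of these subunits in Control and 53.5%, 53.3% and 52.8% in KSPAPN, a difference without overlap but small. *Sptssa*, for a small activating subunit, and *Kdsr*, for ketosphinganine reductase, had log2 fold changes of 0.12 (SE 0.094) and -0.064 (SE 0.12).

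**Figure D3:**
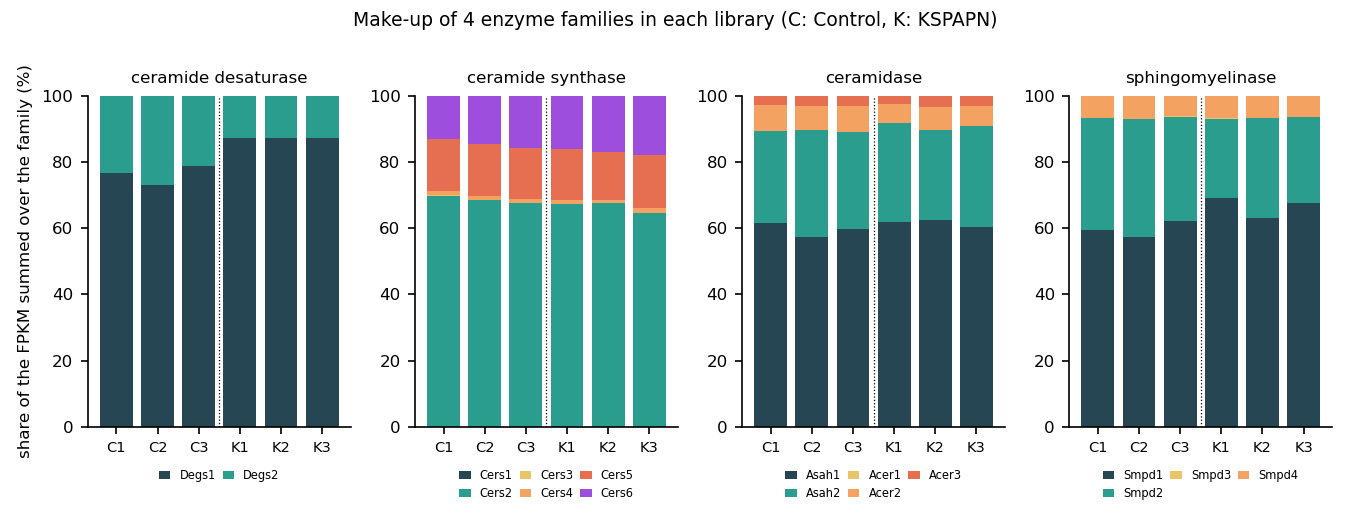
Stacked bars of the share of each gene in the FPKM summed over its enzyme family, from 0 to 100%, in the 3 Control (C1 to C3) and 3 KSPAPN (K1 to K3) libraries, for desaturases, ceramide synthases, ceramidases and sphingomyelinases. *Degs2* takes 21.3% to 26.8% of the desaturase bar in Control and 12.7% to 12.9% in KSPAPN, while *Cers2* takes 64.6% to 69.7% of the ceramide synthase bar in every library.

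The 3 ORMDL genes, whose proteins restrain serine palmitoyltransferase when ceramide is plentiful, did not move one way. *Ormdl3* had the highest mean FPKM of them over all 6 libraries, at 11.9, 10.5 and 10.2 in Control and 13.9, 11.3 and 11.8 in KSPAPN. In Control alone *Ormdl2* was higher, at 12.2, 11.2 and 11.3 FPKM, and in KSPAPN it was lower, at 11.4, 9.53 and 8.70 FPKM. The groups overlapped for *Ormdl3*, with a log2 fold change of 0.19 (SE 0.13, 95% interval -0.087 to 0.47). Log2 fold changes of *Ormdl1* and *Ormdl2* were 0.23 (SE 0.18) and -0.22 (SE 0.14). *Ormdl2* took 45.6%, 43.6% and 46.3% of the FPKM of the 3 genes in Control and 39.5%, 37.8% and 36.5% in KSPAPN, without overlap. However, 68.9% of the 100-base stretches of its transcript are shared with *Dnajc14* on the opposite strand (log2 fold change 0.12, SE 0.091), which had 8424 counts in all beside 2069 for *Ormdl2*. The strand used in counting is not given in the sources used here.

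Ceramide synthases differ in the length of the acyl chain they attach. *Cers2*, for very long chains, dominated the family with 58.3, 61.2 and 58.8 FPKM in Control and 62.5, 69.6 and 62.9 FPKM in KSPAPN. The groups did not overlap, with Control lower, but the log2 fold change of 0.13 (SE 0.085, 95% interval -0.055 to 0.32, adjusted p = 0.434 from edgeR) did not pass the test. *Cers6*, which makes ceramide with palmitate, was at 11.0, 13.1 and 13.9 FPKM in Control and 15.1, 17.5 and 17.3 FPKM in KSPAPN. Here, too, Control lay below KSPAPN without overlap. Its log2 fold change was 0.40 (SE 0.11, 95% interval 0.16 to 0.64), with an adjusted p of 0.0853 from edgeR that ranged from 0.00993 to 0.309 over the 14 alternatives and was under 0.05 in 4 of them. *Cers6* held 14.6% ± 1.39 (SD, n = 3 libraries) of the family's FPKM in Control and 17% ± 0.783 (SD, n = 3) in KSPAPN, and *Cers2* 68.5% ± 1.17 and 66.4% ± 1.61. *Cers5*, also for palmitate, and *Cers4*, for long and very long chains, had log2 fold changes of 0.16 (SE 0.088) and 0.10 (SE 0.17). *Cers5* did not overlap between groups, at 12.9 to 14.0 and 14.2 to 15.8 FPKM.

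Of the ceramidases, which release sphingosine from ceramide, the lysosomal acid ceramidase *Asah1* was the most abundant. It had 24.8, 27.1 and 25.4 FPKM in Control and 30.1, 31.7 and 32.8 FPKM in KSPAPN, and the groups did not overlap. The means were 25.8 ± 1.18 and 31.6 ± 1.34 FPKM (SD, n = 3 libraries each), and the log2 fold change was 0.30 (SE 0.084, 95% interval 0.11 to 0.49). Its adjusted p from edgeR was 0.0937, and over the 14 alternatives it lay between 0.0523 and 0.329, in no case under 0.05. *Asah2*, the neutral ceramidase of the cell surface, was at 13.0 ± 2.09 and 15 ± 1.41 FPKM (SD, n = 3 libraries each), with a log2 fold change of 0.21 (SE 0.12). The alkaline ceramidases of the Golgi and the endoplasmic reticulum, *Acer2* and *Acer3*, had log2 fold changes of -0.030 (SE 0.12) and 0.24 (SE 0.15). *Asah1* made up 57.2% to 61.5% of the FPKM of the family in Control and 60.4% to 62.5% in KSPAPN, so its share overlapped.

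Sphingomyelin is made from ceramide by sphingomyelin synthases and split back by sphingomyelinases. The lysosomal acid sphingomyelinase gene *Smpd1* had the highest mean FPKM of the 6 genes, with 34.8, 32.9 and 33.9 in Control and 38.8, 33.8 and 37.5 in KSPAPN. These overlapped, and the log2 fold change was 0.12 (SE 0.091, 95% interval -0.078 to 0.32). *Smpd2*, for a neutral sphingomyelinase, was at 19.6, 20.4 and 17.2 FPKM in Control and 13.3, 16.2 and 14.3 FPKM in KSPAPN, and all KSPAPN libraries were below all Control libraries. The log2 fold change of *Smpd2* was -0.38 (SE 0.10, 95% interval -0.61 to -0.15), and edgeR gave an adjusted p of 0.0813, with a range of 0.0186 to 0.281 over the 14 alternatives, 3 of which were under 0.05. Its transcript shares 12.7% of its 100-base stretches with *Mical1* on the opposite strand, which has 374 counts in all beside 8594 for *Smpd2*. Among the sphingomyelinases, *Smpd2* held 33.6%, 35.6% and 31.6% of the FPKM in Control and 23.7%, 30.3% and 25.8% in KSPAPN. *Sgms1*, *Sgms2* and *Smpd4* had log2 fold changes of -0.023, -0.068 and -0.046 (SE 0.11, 0.14 and 0.11), and *Smpd3* had 3, 3 and 11 counts in Control and 20, 3 and 14 in KSPAPN, too few to give a narrow interval.

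Of the 3 genes that lead ceramide or its products into or out of glycolipids and ceramide 1-phosphate, *Galc*, for lysosomal galactosylceramidase, was the highest at 8.0, 8.72 and 7.94 FPKM in Control and 6.22, 8.47 and 7.78 FPKM in KSPAPN. The groups overlapped (log2 fold change -0.13, SE 0.11, 95% interval -0.38 to 0.12). *Ugcg*, for glucosylceramide synthase, was at 3.05 ± 0.722 and 3.73 ± 0.342 FPKM and *Cerk*, for ceramide kinase, at 4.41 ± 0.137 and 4.98 ± 0.918 FPKM (SD, n = 3 libraries each). Their log2 fold changes were 0.30 (SE 0.17) and 0.19 (SE 0.15), and neither passed the test.

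The sphingosine kinases are the members that make S1P, and both lay below 0 in log2 fold change at an unadjusted p under 0.05 only. *Sphk1* was at 2.15, 1.57 and 2.43 FPKM in Control and 1.5, 1.58 and 1.40 FPKM in KSPAPN. Control replicate 2 was as low as the KSPAPN libraries, so the groups overlapped. The log2 fold change was -0.45 (SE 0.19, 95% interval -0.88 to -0.023, adjusted p = 0.243 from edgeR). *Sphk2*, the more abundant kinase, was at 13.0, 12.8 and 14.7 FPKM in Control and 12.6, 9.31 and 11.1 FPKM in KSPAPN, without overlap by a narrow margin. It had a log2 fold change of -0.28 (SE 0.12, 95% interval -0.56 to -0.011, adjusted p = 0.249 from edgeR), and 18.7% of its 100-base stretches are shared with *Dbp* and *Rpl18* on the opposite strand. *Rpl18*, for a ribosomal protein, had 22297 counts in all beside 5890 for *Sphk2*. It had a log2 fold change of -0.35 (SE 0.12, adjusted p = 0.161 from edgeR), and *Dbp*, a clock-controlled factor, had one of -0.14 (SE 0.30). The part of both genes in the value of *Sphk2* was not tested.

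On the side of S1P breakdown no gene passed the test. *Sgpp1*, for an S1P phosphatase, was the most abundant at 28.6, 33.8 and 28.3 FPKM in Control and 27.1, 35.8 and 33.6 FPKM in KSPAPN, which overlapped (log2 fold change 0.094, SE 0.12, 95% interval -0.17 to 0.35). *Sgpl1*, for S1P lyase, was at 13.9 to 14.4 FPKM in Control and 15.1 to 16.1 FPKM in KSPAPN, without overlap, and had a log2 fold change of 0.15 (SE 0.082, adjusted p = 0.356 from edgeR). *Sgpp2*, for the other phosphatase, had one of 0.087 (SE 0.10). Among the receptors, *S1pr1*, known from endothelium and lymphocytes, had 4.13, 3.41 and 2.73 FPKM in Control and 4.20, 3.81 and 4.07 FPKM in KSPAPN. The lowest pair of values was in Control, but the groups overlapped (log2 fold change 0.24, SE 0.17, 95% interval -0.14 to 0.63). *S1pr3* was at 3.35 and 3.23 FPKM and *S1pr2* at 0.485 and 0.498 FPKM on average, with log2 fold changes of -0.040 (SE 0.23) and 0.058 (SE 0.33).

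**Figure D4:**
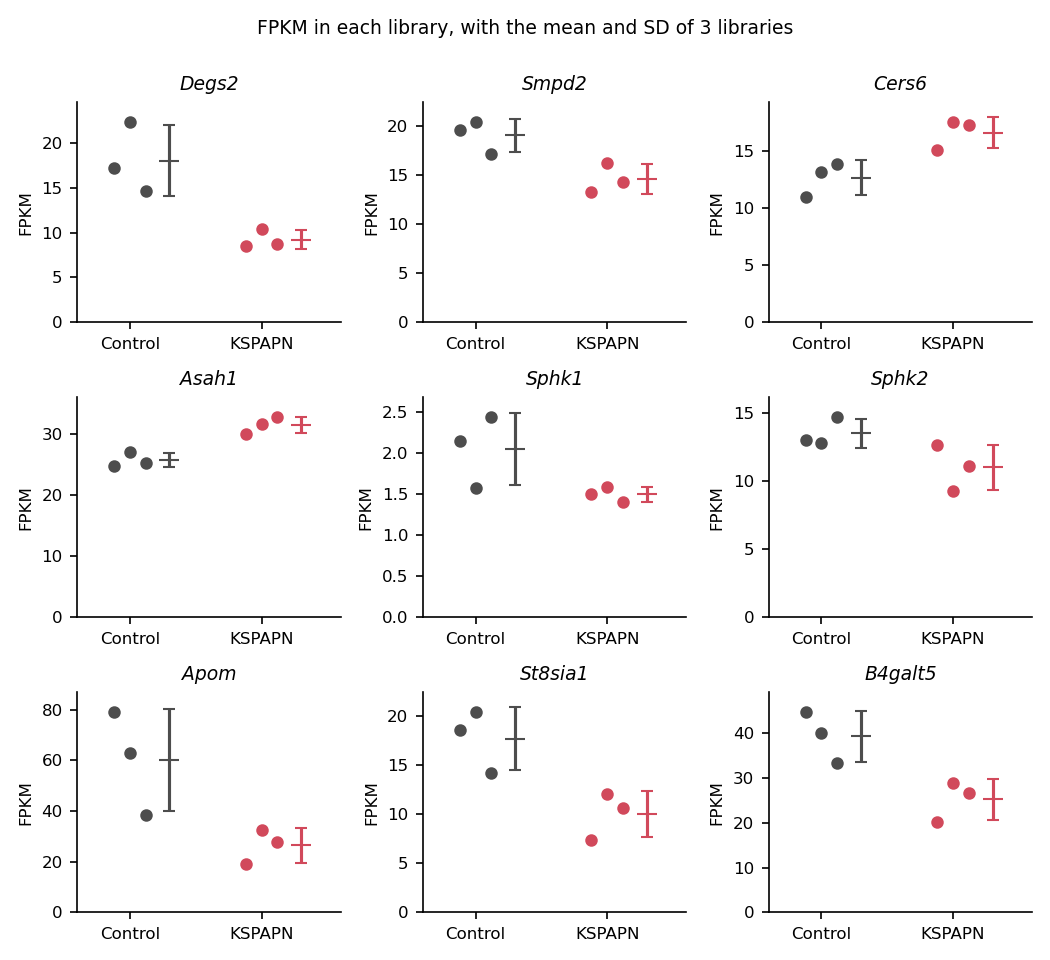
FPKM (linear axes from 0) in each of the 3 Control and 3 KSPAPN libraries, with the mean and SD beside them, for the 6 sphingolipid genes at an unadjusted p under 0.05 and the 3 further genes that fell. The groups do not overlap except in *Sphk1*, where Control replicate 2 at 1.57 FPKM lies among the KSPAPN libraries.

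Further genes of the pathway, in a second list of 53 symbols, held 51 with exactly 1 row, of which 47 were tested. Of these 47, edgeR called 3 as lower and 0 as higher by adjusted p, or 6.38%. Of all genes tested, 2.65% were called in either direction and 2.25% as lower. DESeq2 called the same 3, of 44 genes with an adjusted p, or 6.82% against 6.88% of all genes with one. At an unadjusted p under 0.05, 2 were higher and 6 lower, or 17.02% of the 47 against 18.7% of all genes. The FPKM of the groups did not overlap in 7 of the 47, or 14.9%, against 24.4% of all genes. Of these shares in either direction, only that by edgeR's adjusted p was above that of all genes. The median log2 fold change of the 47 was -0.044, with 19 above 0 and 28 below. Over all genes tested the median was 0.012, with 51.9% above 0. By role, 2 of the 3 belonged to 13 genes of glycosphingolipid synthesis (median -0.28, 10 below 0), and 1 to 8 tested genes of S1P transport and breakdown (median -0.022). None of 8 tested genes of ceramide synthesis and handling (median -0.00067), of 5 of sphingomyelin turnover (median -0.24) or of 13 of lysosomal breakdown (median 0.023) passed the test in edgeR, and 0 of them did in DESeq2. At an unadjusted p under 0.05, 1, 0 and 2 of these did, against 18.7% of all genes tested. Once trends with GC content and gene length were removed, the median of glycosphingolipid synthesis was -0.11, with 4 of 13 above 0. That of sphingomyelin turnover was then -0.085, and that of all genes tested 0.043.

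*Apom* (ENSMUSG00000024391, chr17:35128997-35132050, minus strand), which encodes the apolipoprotein that carries S1P on lipoproteins, was at 78.9, 62.9 and 38.6 FPKM in Control and 19.1, 32.6 and 27.8 FPKM in KSPAPN. The means were 60.1 ± 20.3 and 26.5 ± 6.84 FPKM (SD, n = 3 libraries each), and *Apom* fell with a log2 fold change of -1.18 (SE 0.24, 95% interval -1.72 to -0.64, adjusted p = 0.0354 from edgeR). The Control libraries spread widely, yet the lowest of them was above the highest KSPAPN library. *B4galt5* (ENSMUSG00000017929, chr2:167298444-167349183, minus strand), for a lactosylceramide synthase, was at 44.6, 39.9 and 33.2 FPKM in Control and 20.2, 28.8 and 26.6 FPKM in KSPAPN, a log2 fold change of -0.64 (SE 0.14, 95% interval -0.95 to -0.32, adjusted p = 0.0450 from edgeR). *St8sia1* (ENSMUSG00000030283, chr6:142821545-142964452, minus strand), for the sialyltransferase that makes ganglioside GD3, was at 18.6, 20.4 and 14.2 FPKM in Control and 7.39, 12 and 10.6 FPKM in KSPAPN, a log2 fold change of -0.82 (SE 0.17, 95% interval -1.21 to -0.43, adjusted p = 0.0389 from edgeR). In both of these the groups did not overlap. KSPAPN replicate 1 was the lowest library in these and in *Apom*.

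The calls of *Apom*, *B4galt5* and *St8sia1* were lost when any of 3 single libraries was left out. Without Control replicate 1 their adjusted p from edgeR was 0.167, 0.202 and 0.171, without Control replicate 2 it was 0.0892, 0.126 and 0.126, and without KSPAPN replicate 3 it was 0.123, 0.142 and 0.128. With limma on either FPKM scale all 3 calls were lost (adjusted p = 0.0974 to 0.0998). Those of *Apom* and *B4galt5* were also lost with total counts only (adjusted p = 0.0521 and 0.0581 from edgeR) and after GC and length trends were removed (0.0706 and 0.0849). Over the 14 alternatives the adjusted p ranged from 2.01e-18 to 0.167, from 4.98e-07 to 0.202 and from 1.53e-11 to 0.171. Log2 fold changes stayed below 0 in all of these, with the value nearest to 0 at -0.94 for *Apom*, -0.49 for *B4galt5* and -0.63 for *St8sia1*. The proximal tubule markers were lower in the same libraries, and their part in these results was not tested.

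The promoters of these 3 genes are given for comparison with that of *Degs2*, the other gene of the pathway that fell, in the same form and with the same motifs in capitals.
B4galt5, chr2:167349179-167349428, minus strand: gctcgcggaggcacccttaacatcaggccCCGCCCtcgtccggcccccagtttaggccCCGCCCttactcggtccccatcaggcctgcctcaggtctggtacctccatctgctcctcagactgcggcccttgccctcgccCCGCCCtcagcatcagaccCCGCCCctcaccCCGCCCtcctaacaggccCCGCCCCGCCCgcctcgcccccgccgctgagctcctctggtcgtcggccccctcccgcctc
St8sia1, chr6:142964453-142964702, minus strand: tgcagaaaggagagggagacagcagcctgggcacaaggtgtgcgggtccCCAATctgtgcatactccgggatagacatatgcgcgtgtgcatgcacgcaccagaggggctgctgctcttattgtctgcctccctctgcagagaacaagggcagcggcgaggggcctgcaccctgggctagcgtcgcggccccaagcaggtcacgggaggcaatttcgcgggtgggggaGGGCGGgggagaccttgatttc
Apom, chr17:35131802-35132051, minus strand: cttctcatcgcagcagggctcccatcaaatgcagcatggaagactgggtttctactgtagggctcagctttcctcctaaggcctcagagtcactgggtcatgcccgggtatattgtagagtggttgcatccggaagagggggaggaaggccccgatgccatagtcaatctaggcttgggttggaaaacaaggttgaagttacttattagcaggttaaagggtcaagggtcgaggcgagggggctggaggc
*B4galt5* held 7 GC boxes, of which the last pair overlap by 1 base, *St8sia1* held 1 GC box and 1 CCAAT box, and *Apom* held none of the motifs, so that no motif was in all 4 promoters. However, the RefSeq stretch of *Apom* lies almost wholly inside the gene as GENCODE places it. Its lack of motifs thus does not describe the bases before the GENCODE start.

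Next in order of unadjusted p in this second list, and not past the adjusted threshold, were 8 genes with log2 fold changes from -0.30 to 0.30. *Hacd3*, for a dehydratase of fatty acid elongation, was at 30.5 ± 1.87 and 37.4 ± 1.27 FPKM (SD, n = 3 libraries each; log2 fold change 0.30, SE 0.086, adjusted p = 0.0976 from edgeR). *Plekha8*, for a carrier of glucosylceramide, had a log2 fold change of -0.30 (SE 0.095, adjusted p = 0.126 from edgeR, 0.0353 after GC and length trends were removed and 0.0353 to 0.359 over the alternatives), and *B4galt6*, for the other lactosylceramide synthase, of 0.24 (SE 0.11), opposite in sign to *B4galt5* and at a lower level, 4.52 and 5.32 FPKM on average. Among lysosomal hydrolases, *Glb1*, for beta-galactosidase, was at 61.6 and 52.5 FPKM and *Neu1*, for sialidase, at 127 and 104 FPKM on average, with log2 fold changes of -0.23 (SE 0.083) and -0.28 (SE 0.11). *Hexa*, for a hexosaminidase subunit, was at 20.1 and 22.9 FPKM (log2 fold change 0.20, SE 0.11). *Smpdl3a*, for a secreted phosphodiesterase related to acid sphingomyelinase, and *Aldh3a2*, for the dehydrogenase that oxidizes the aldehyde from S1P cleavage, had log2 fold changes of -0.24 (SE 0.12) and -0.21 (SE 0.11).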

How the data were processed

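Reads were counted per gene by the authors, who deposited whole-number counts without normalization, and FPKM that the authors scaled by gene length and library size. RNA was enriched for mRNA with oligo(dT) beads. The submitters' processing notes name STAR 2.5, TopHat, HTSeq 0.6.1, DESeq2 and edgeR without a role or order. Genome build, annotation and strand setting were not given in the sources used here, so overlapping genes on opposite strands may share counts. Reads have no molecular identifiers, so count limits cover counting error only.

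Libraries were grouped by their labels. Identifiers were matched to GENCODE M21 (GRCm38), 54495 of 54532 with a match and 37 without. Counts were analysed with edgeR 4.0.16 in R 4.3.3 (TMM, filter with minimum count 10 and minimum total 15, quasi-likelihood test, two-sided, Benjamini-Hochberg over 16017 genes), in place of the study's test on FPKM. Log2 fold changes are KSPAPN against Control, with SE, and intervals cover 95%. The method was tested on simulated counts with a common dispersion for all genes and changes larger than those of most genes named here. That test therefore does not cover small changes or the differences between pools seen in these libraries.

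The members, the second list of pathway genes and the lists of markers by cell type were chosen with earlier results of these data known, so lists are described by counts and medians beside all genes. Values in every library are given for members at an unadjusted p under 0.05 and for the highest of each role. In the second list, genes at an adjusted p under 0.05 and the next 8 are named. *Evl*, *Dnajc14*, *Mical1*, *Dbp*, *Rpl18* and *Gdf1* are named for shared sequence.

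Alternatives were DESeq2 1.42.0 (Wald test), RLE factors, total counts only, no filter, limma 3.58.1 on log2(FPKM + 1) and log2(FPKM + 0.1), replicate number as a block, subtraction of GC and length trends (splines with 5 degrees of freedom, fitted where mean log2 CPM exceeded 3), and each library left out in turn. Libraries of a group differed by more than sampling noise (chi-square per degree of freedom 12.7 to 43.1). KSPAPN replicate 1 stood apart most, at 43.1 and 32.3 against replicates 2 and 3, which were at 12.7 against each other. Control pairs were at 16.6 to 21.2. Promoters came from RefSeq (GRCm38.p6), shared stretches from GENCODE M21 transcripts. Tables and plots used Python 3.11.15, pandas 2.3.3 and matplotlib 3.10.9.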

Additional observations from a re-analysis of the deposited data

How the results depend on the processing

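For the 24 named genes, 305 of the values under alternatives kept their direction and their side of the threshold, 8 came under an adjusted p of 0.05, 23 went above it and 0 changed sign. The sphingolipid genes lower at an adjusted p under 0.05, 1 in all libraries, were 2 with DESeq2 and with no filter, 0 with limma on either FPKM scale, and 0 to 1 with single libraries left out (0 without Control replicate 1 and without KSPAPN replicate 3). Those higher, 0 in all libraries, were 1 with DESeq2 and with no filter, and 0 to 1 with libraries left out (1 without KSPAPN replicate 1). At an unadjusted p, those higher, 2 in all libraries, were 8 with total counts only, 7 after the GC and length correction and 2 to 5 with libraries left out (5 without Control replicate 2). All genes moved up too under the first pair of settings. Of 16017 genes, 8307 were above 0 in the main fit, 9848 with total counts only and 9209 after the GC and length correction. The share of all genes at an unadjusted p is not given for these settings. Sphingolipid genes lower at an unadjusted p, 4 in all libraries, were 2 with total counts only and 2 to 4 with libraries left out, 2 without Control replicates 1 and 3 and KSPAPN replicates 2 and 3. Their median log2 fold change, 0.12, was 0.19 with total counts only, 0.076 with limma on log2(FPKM + 1), 0.069 after the GC and length correction and 0.072 to 0.14 with libraries left out, lowest without KSPAPN replicate 3. Of the further genes, 3 were lower in all libraries, 1 with total counts only, 0 with limma on either scale and 0 to 4 with libraries left out (0 without Control replicates 1 and 2 and KSPAPN replicate 3). Their median, -0.044, was 0.018 with total counts only, where it changed sign, -0.056 with limma on log2(FPKM + 0.1), -0.0035 after the GC and length correction and -0.079 to -0.020 with libraries left out. Over all genes, 424 calls became 937 with DESeq2, 266 with total counts only, 1339 with no filter, and 128 and 119 with limma on log2(FPKM + 1) and log2(FPKM + 0.1). With libraries left out they were 39 to 733, with 39 without Control replicate 1, 65 without KSPAPN replicate 3 and 733 without KSPAPN replicate 1. The causes of these differences were not tested.

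With replicate number as a block, 929 genes were called, among them 1 sphingolipid gene as higher (*Cers6*, adjusted p = 0.0246 from edgeR) and 2 as lower (*Degs2* and *Smpd2*, adjusted p = 0.00813 and 0.0357). Deviations of same-numbered libraries correlated across 16017 genes at 0.054, 0.15 and 0.17, and those of other pairs at -0.18 to 0.021. Each library thus correlated best with its own number. Whether the numbers mark a pairing was not tested, and the main fit has no block because the study's test was unpaired.

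With 3 pools per group, the median SE of the 35 log2 fold changes was 0.12 and the largest, that of *Smpd3*, was 0.71.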

Other observations

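The genes of the adiponectin receptors, whose proteins carry ceramidase activity, were expressed in both groups, and neither passed the test. *Adipor1* was at 29.8, 28.7 and 31.2 FPKM in Control and 32.2, 28.8 and 26.9 FPKM in KSPAPN, with a log2 fold change of -0.024 (SE 0.097, 95% interval -0.24 to 0.19). *Adipor2* was at 18.2, 21.1 and 18.9 FPKM in Control and 20.5, 20.1 and 20.1 FPKM in KSPAPN, with a log2 fold change of 0.065 (SE 0.089, 95% interval -0.13 to 0.26). The groups overlapped in both, and the adjusted p from edgeR was 0.924 and 0.746.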
